A study of Mus musculus with 21 samples.

Results

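The genes described here encode 7 clock output factors: *Tef*, *Dbp*, *Hlf*, *Nfil3*, *Bhlhe40*, *Bhlhe41* and *Ciart*. They were found by gene name among the 53801 genes of the count table, all 7 were present, and all 7 passed the filter of at least 10 counts over all libraries that left 20256 genes for testing. RNA was measured in IgA+ plasma cells (IgA+ PCs), CD138+ cells that make IgA in the lamina propria of the small intestine, sort-purified from C57BL/6 mice at ZT0 or ZT12. Zeitgeber time (ZT) counts hours from lights on. Control mice (Mb1Cre-/- x Arntlfl/fl, labelled WT) gave 6 libraries at ZT0 and 6 at ZT12, and knockout mice (Mb1Cre+/- x Arntlfl/fl, labelled KO) gave 4 at ZT0 and 5 at ZT12. All mice carry the floxed alleles of *Arntl*, the gene of the clock activator Bmal1. The Cre sits in *Cd79a* (Mb1), which is active from the first B cell stages, and deletes *Arntl* throughout the B cell lineage. The controls carry no Cre, so that loss of Bmal1 and the loss of an intact *Cd79a* allele cannot be told apart. Ages are not given in the labels.

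In the circadian clock, Bmal1 and its partner CLOCK bind the E-box, a short DNA motif, and switch on their own repressors together with output genes that carry the rhythm to the rest of the genome. The PAR bZIP proteins TEF, DBP and HLF are such outputs and activate genes through another motif, the D-box, at which NFIL3 (E4BP4) represses. *Nfil3* itself is repressed by the REV-ERB receptors. BHLHE40 (DEC1), BHLHE41 (DEC2) and CIART (CHRONO) close a loop, since they repress transcription that Bmal1 and CLOCK drive. In lymphocytes some of these factors are better known for other roles, NFIL3 in innate lymphoid cell development and class switching to IgE, and BHLHE41 in the upkeep of B-1a cells.

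The E-box is the letter string CACGTG, which reads the same on both strands. It was searched in RefSeq promoter windows of 300 bases (GRCm38.p6, from 250 bases before to 50 after a start site), which were present for 6 of the 7 genes, with 2 start sites for *Tef*. *Bhlhe40* had no entry. Sequence farther upstream or deeper within a gene was not searched, so that an absence covers these windows only. Of all 32817 windows, 7.15% held at least 1 E-box and 0.0884% (29 windows) held at least 3. *Ciart* held 3, both start sites of *Tef* held 1 each, *Bhlhe41* held 1, and the windows of *Dbp*, *Hlf* and *Nfil3* held none. These are shown because they place the motif of Bmal1 beside the genes whose levels follow, with the E-boxes in capitals and 10 bases on each side. The *Ciart* stretch lies on the minus strand at chr3:95882257-95882354, with its motifs starting 116, 58 and 44 bases before the start site. The *Tef* stretches lie on the plus strand at chr15:81802536-81802561, 127 bases before the first start site and within an annotated untranslated exon of another transcript, and at chr15:81811266-81811291, 138 bases before the other. The *Bhlhe41* stretch lies on the minus strand at chr6:145865558-145865583, 153 bases before its start site.
Ciart: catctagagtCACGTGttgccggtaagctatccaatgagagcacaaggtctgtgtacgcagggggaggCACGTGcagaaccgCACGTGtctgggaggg
Tef, first start site: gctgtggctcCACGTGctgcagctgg
Tef, other start site: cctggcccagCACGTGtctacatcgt
Bhlhe41: gtacgttccgCACGTGagctgggtgc

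Other motifs were searched on both strands. The related string CACGTT (in 4.69% of all windows) and the D-box TTATGNAA (3.39%) were found in no window of the 6 genes. The core of the REV-ERB and ROR motif, TAGGTCA (2.61%), was found once, in *Nfil3*, 12 bases before its start site and as TGACCTA on the strand of the gene (capitals, at chr13:52981035-52981061 on the minus strand, within an annotated untranslated exon). It is shown because *Nfil3* is the member known as a target of those receptors. A match is a description of these letters and not a measured binding site.
Nfil3: cgctcggaacTGACCTActaacacaca

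Levels are given in CPM, counts scaled to the same library total, after TMM normalization, which aligns the libraries on the bulk of their genes. Differences are log2 fold changes with their standard error (SE) from edgeR's quasi-likelihood test on all 4 groups. A gene is referred to as called where its Benjamini-Hochberg adjusted p over all genes tested was under 0.05. The libraries held 14471018 to 22785835 counts each, of which immunoglobulin genes took 51.5% to 63.6%. The titles of the samples set the genotype here, as 8 of the knockout samples carry the control genotype in another label, and *Cd79a* separated them, with at most 276 CPM in the knockout mice and at least 386 CPM in the controls. *Arntl* was at 6.83 to 8.36 CPM in the controls at ZT0 and at 4.08 to 6.47 CPM in the knockouts at ZT0. At ZT12 the genotypes overlapped, at 4.00 to 5.56 CPM in the controls and 3.11 to 4.93 CPM in the knockouts. *Arntl* was not called between the genotypes at either time (adjusted p = 0.926 at ZT0 and 0.678 at ZT12 from edgeR), and the counts cover the whole gene, undeleted exons included. The defining genes of plasma cells were all detected and summed to 281773 to 593591 CPM, against 55.7 to 841 CPM for 12 epithelial markers. Almost all of the plasma cell sum was *Igha* (235061 to 517996 CPM) and *Jchain* (37480.6 to 69812.4 CPM). The other listed plasma cell genes ran from *Tnfrsf17*, at 68.6 to 126 CPM, to *Xbp1*, at 1855 to 3022 CPM. These genes were named after their values were seen. The sums were 31.1 to 64.3 CPM for 8 T cell markers, 19.4 to 87.1 CPM for 8 myeloid markers and 13.0 to 31.1 CPM for 8 markers of other B cells. Of 9 stromal and endothelial markers listed, the 8 that passed the count filter summed to 23.98 to 47.2 CPM. No listed marker was at 0 in all libraries. Knockout ZT0 replicate 3 stood apart, with 59.4% immunoglobulin counts, the highest *Arntl* of its genotype, and both *Xist* (428 CPM) and the Y-linked *Ddx3y* (20.7 CPM). Control ZT12 replicates 2, 4 and 5 also had over 58% immunoglobulin counts. Where a fold change of a member moved by over 1.5 times without these 4 libraries, the value without them is given too. Knockout ZT12 replicate 5, which is not among them, also held both *Xist* (344 CPM) and *Ddx3y* (2.23 CPM), with 496 CPM of epithelial markers.

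*Tef* was the only member that edgeR called for the time of day in control mice. It rose by 1.63-fold from ZT0 to ZT12, and the means in knockout mice lay between these levels at both times. In control mice at ZT0 *Tef* was at 14.3, 17.3 and 18.1 CPM (lowest, median and highest of 6 mice), with a mean of 16.7 ± 1.38 CPM (SD, n = 6). At ZT12 it was at 23.02, 27.9 and 30.5 CPM, with a mean of 27.4 ± 2.94 CPM (SD, n = 6). Each control mouse at ZT12 was thus above each at ZT0, a separation that 0.745% of all genes showed in this direction. The log2 fold change was 0.71 (SE 0.09, 95% interval 0.52 to 0.89, adjusted p = 0.000437 from edgeR), the smallest p of all genes tested. Across all genes 1.73% were called in this comparison, 0.948% as higher at ZT12, and 1 of the 7 members, *Tef*, was called by edgeR. These levels rest on 243 to 515 counts per control mouse.

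In the knockout mice *Tef* was at 19.9, 22.0, 25.9 and 23.3 CPM at ZT0 and at 22.1, 20.7, 22.5, 20.6 and 23.6 CPM at ZT12. The times overlapped, the highest value was that of the library that stood apart, and every knockout mouse was above every control mouse at ZT0. The log2 fold change from ZT0 to ZT12 was -0.06 (SE 0.10, 95% interval -0.27 to 0.16, adjusted p = 0.924 from edgeR), and it was 0.01 without knockout ZT0 replicate 3. No gene was called in this comparison (0% by edgeR), against 8.01% with an unadjusted p under 0.05 and 0.319% called by DESeq2.

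The change of *Tef* in knockout mice less that in control mice, the interaction, was -0.76 on the log2 scale (SE 0.14, 95% interval -1.05 to -0.48). Its unadjusted p of 6.83e-06 was the smallest of all 20256 genes, yet the adjusted p was 0.138 from edgeR, and 0% of genes were called. DESeq2 called *Tef* (adjusted p = 0.00114), as 1 of 4 genes or 0.0279% of those it tested. Over all settings other than single libraries left out, the interaction of *Tef* ranged from -0.94 to -0.57 with an adjusted p from 0.00114 to 1. It was called with the trend of each library on gene length removed (-0.94, adjusted p = 0.0371 from edgeR), where 0.00494% of genes were called. It was also called without control ZT12 replicate 1 (adjusted p = 0.0317 from edgeR), where 0.00498% were.

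At ZT0 *Tef* was 1.36-fold higher in knockout than in control mice, or by 0.44 on the log2 scale (SE 0.10, unadjusted p = 0.00013, adjusted p = 0.44 from edgeR). The groups did not overlap, which was true in this direction of 0.504% of all genes, but edgeR called 0.00987% of genes in this comparison and *Tef* was not among them. Without knockout ZT0 replicate 3 the difference was 0.38. At ZT12 it was -0.32 (SE 0.09, unadjusted p = 0.00216, adjusted p = 0.562 from edgeR, with 0.0148% of genes called), and 4 of the 5 knockout mice were below the lowest control mouse. Both comparisons use the control libraries of the time comparison, so that they are not separate evidence.

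**Figure D1:**
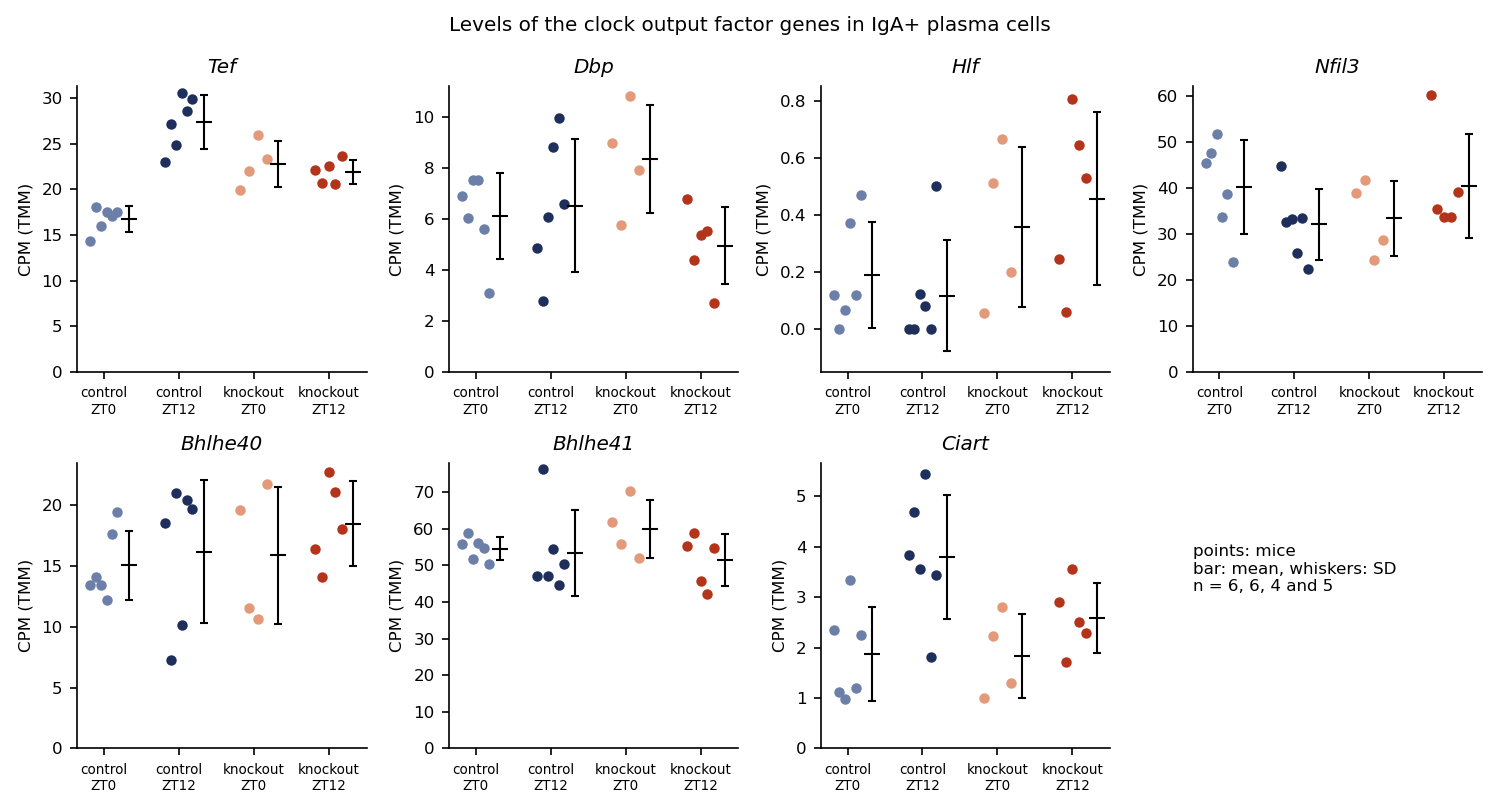
Level in CPM after TMM normalization (linear y axes from 0, or just below it for *Hlf*) of each of the 7 genes in the 4 groups, with 1 point per mouse and the mean with its SD beside the points. For *Tef* the control points at ZT12 (23.02 to 30.5 CPM) all lie above those at ZT0 (14.3 to 18.1 CPM), and the points of the other 6 genes overlap between the times in both genotypes.

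Several library measures moved with the rise of *Tef*. The share of immunoglobulin counts was 51.5% to 53.3452% in control mice at ZT0 and 53.3455% to 63.6% at ZT12. These ranges did not overlap. The Pearson r of the share with the log2 level of *Tef* was 0.67 over the 21 mice and 0.39 within the groups. The 12 epithelial markers summed to 55.7 to 202 CPM in control mice at ZT0 and to 74.7 to 841 CPM at ZT12. With the immunoglobulin share as a covariate the change of *Tef* was 0.61 (SE 0.10, adjusted p = 0.0508 from edgeR), so that the call was lost, in a fit that called 0 genes in all. Without the 4 libraries over 58% it was 0.63 (SE 0.10, adjusted p = 0.00841 from edgeR) and 1 of 12 genes called. With the epithelial markers as a covariate it was 0.67 (SE 0.10, adjusted p = 0.00398 from edgeR). Gene length moved with the calls too, with a median of 2175.5 bases in genes called as higher at ZT12, 6308.5 in those called as lower and 3093 in all genes tested. *Tef*, with 7867 bases, is longer than the median of either set, and its change was 0.83 (SE 0.10) with the length trend removed. The summed stromal and endothelial markers went the other way, from 41.3 to 45.9 CPM at ZT0 to 23.98 to 38.9 CPM at ZT12. Most of this sum was *Pecam1*, an adhesion molecule of endothelium and some leukocytes, at a mean of 39.4 and then 27.6 CPM. *Pecam1* was called as lower (-0.51, SE 0.14, adjusted p = 0.0494 from edgeR), so that the sum and this call are not separate observations. Of the 8 markers tested, 3 had an unadjusted p under 0.05 as lower and 1 as higher (18.1% of all genes in either direction). The 12 genes of the dissociation response, which cell isolation can induce, had a median log2 fold change of 0.67 in control mice, with 5 at an unadjusted p under 0.05, all higher (18.1% of all genes in either direction), and of -1.03 in the interaction, with 8 of them, all lower (10.8%). With their summed level as a covariate the change of *Tef* was 0.70 (SE 0.09, adjusted p = 0.000654 from edgeR) and its interaction -0.76 (SE 0.15, adjusted p = 0.441 from edgeR). The part of the stromal and endothelial markers in the result was not tested. In mice with *Xist* of at least 100 CPM *Tef* was at 14.3 to 18.1 CPM at ZT0 and 23.02 to 28.6 CPM at ZT12 (3 control mice each), and in the others at 17.1 to 17.5 CPM and 24.9 to 30.5 CPM (3 each). With each library left out in turn the change ran from 0.67 to 0.75 and stayed called. In bulk samples, more cells that express a gene and more RNA per cell cannot be told apart.

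**Figure D2:**
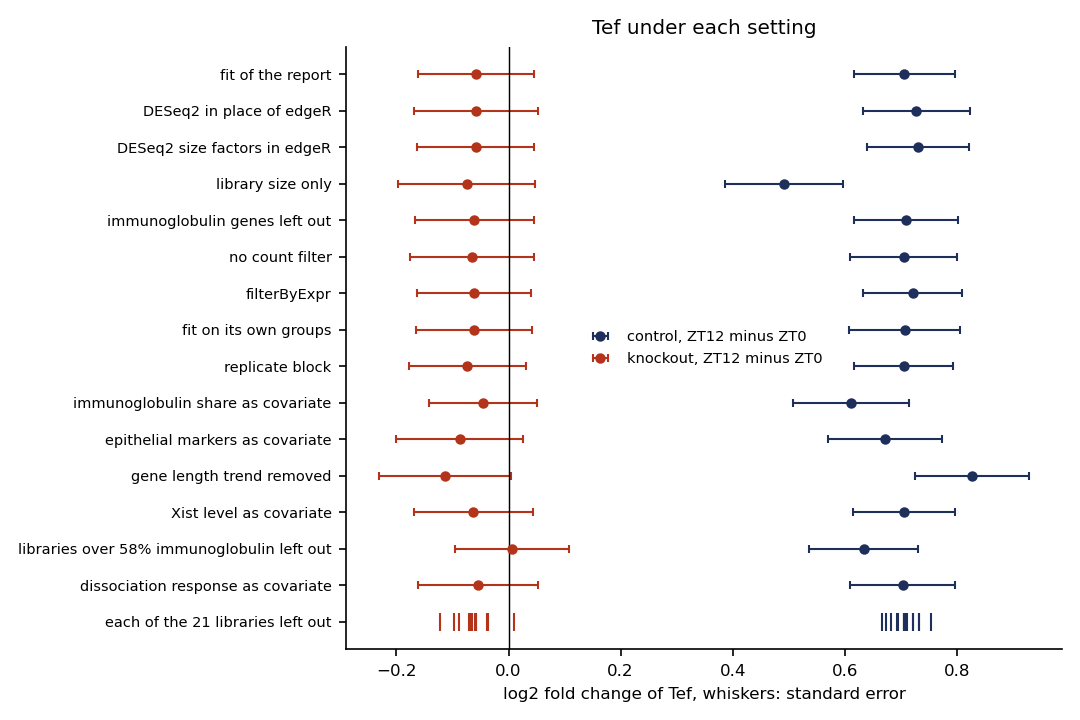
Log2 fold change of *Tef* from ZT0 to ZT12 (x axis) in control and knockout mice under each setting of the analysis (rows), with whiskers for the standard error and, in the last row, a tick for each library left out. The control values stay between 0.49 and 0.83 and the knockout values between -0.12 and 0.01.

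*Dbp*, the PAR bZIP gene with the strongest rhythm in many tissues, did not pass the test in any comparison. Mice were sampled at ZT0 and ZT12 only, so that a rhythm with like levels at these times would not be seen in any member. In control mice *Dbp* was at 3.07, 6.46 and 7.54 CPM (lowest, median and highest) at ZT0 and at 2.80, 6.33 and 9.96 CPM at ZT12. The range at ZT12 enclosed that at ZT0. The log2 fold change was 0.09 (SE 0.26, 95% interval -0.46 to 0.63, adjusted p = 0.901 from edgeR), and it was -0.06 without the 4 libraries over 58% immunoglobulin. The interval overlaps that of *Tef* (0.52 to 0.89), and the changes of the 2 genes were not compared by a test. In knockout mice *Dbp* was at 8.96, 5.74, 10.8 and 7.90 CPM at ZT0 and at 6.78, 4.38, 5.38, 5.54 and 2.70 CPM at ZT12. Here 3 of the 4 mice at ZT0 were above all 5 at ZT12. The change was -0.75 (SE 0.30, 95% interval -1.38 to -0.13, unadjusted p = 0.0205, adjusted p = 0.609 from edgeR). The difference between the genotypes was -0.84 (SE 0.40, unadjusted p = 0.0472, adjusted p = 0.459 from edgeR), and -0.55 (SE 0.37) without those 4 libraries. An unadjusted p under 0.05 was reached in these comparisons by 8.01% and 10.8% of all genes and by 1 and 2 of the 7 members. *Dbp* overlaps *Sphk2* on the opposite strand, which was at 29.9 to 70.2 CPM. Whether reads were counted by strand is not stated, so that reads of the stretch these genes share cannot be told apart. *Sphk2* changed by -0.24 (SE 0.15) in control and -0.25 (SE 0.18) in knockout mice.

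*Hlf*, the third PAR bZIP gene, was at the limit of detection. Its counts in control mice were 2, 0, 1, 6, 2 and 9 at ZT0 and 0, 0, 2, 1, 0 and 8 at ZT12. In knockout mice they were 1, 8, 10 and 4 at ZT0 and 4, 1, 12, 10 and 9 at ZT12. It had no count in 4 of 21 libraries and at most 3 counts in 11, where 3 counts, the limit that a count of 0 allows, stand for 0.134 to 0.240 CPM. The counts overlapped between all groups, and any fold change between the times rests on these few counts. At ZT12 the difference of the knockout from the control mice had an unadjusted p of 0.0566 (adjusted p = 0.562 from edgeR).

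*Nfil3*, the repressor at the D-box, was at 23.8, 42.0 and 51.8 CPM (lowest, median and highest) in control mice at ZT0 and at 22.4, 32.9 and 44.7 CPM at ZT12. In knockout mice it was at 38.8, 41.7, 24.4 and 28.6 CPM at ZT0 and at 60.3, 35.4, 33.8, 33.6 and 39.02 CPM at ZT12. All 4 groups overlapped, and the values within each spread by more than 1.5-fold. The log2 fold change was -0.32 in control mice (SE 0.20, 95% interval -0.74 to 0.10, adjusted p = 0.414 from edgeR) and 0.28 in knockout mice (SE 0.24, adjusted p = 0.79 from edgeR). The control value was -0.52 (SE 0.22) with library size only and -0.18 (SE 0.26) with the immunoglobulin share as a covariate, and the knockout value was 0.15 (SE 0.28) without the 4 libraries over 58% immunoglobulin. The interaction was 0.60 (SE 0.31, unadjusted p = 0.068, adjusted p = 0.482 from edgeR), and 0.40 without knockout ZT12 replicate 1, the mouse at 60.3 CPM. *Nr1d2*, which encodes the *Nfil3* repressor REV-ERB beta, was at 46.1 to 73.5 CPM in the control and 7.80 to 13.4 CPM in the knockout mice. At these levels of *Nr1d2*, *Nfil3* in knockout mice differed from that in control mice by -0.27 (SE 0.23, 95% interval -0.74 to 0.21) at ZT0, or -0.14 (SE 0.27) without the 4 libraries, and by 0.33 (SE 0.21, 95% interval -0.11 to 0.77) at ZT12.

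To set the genes side by side, levels were divided by the deposited gene length. How that length treats different transcripts of a gene is not given, so that the order of the genes is approximate. Per kilobase *Nfil3* was the highest of the 7, with a mean over all mice of 18.1 ± 4.75 CPM per kb (SD, n = 21). *Bhlhe41* followed with 8.11 ± 1.20 CPM per kb and *Bhlhe40* with 3.47 ± 0.94 CPM per kb (SD, n = 21 each). *Tef* was at 2.82 ± 0.581, *Dbp* at 2.13 ± 0.735, *Ciart* at 1.14 ± 0.543 and *Hlf* at 0.0396 ± 0.0388 CPM per kb (SD, n = 21 each). Each gene was above the next in 21, 21, 17, 16, 18 and 21 of the 21 mice, going down this order. The ranges of neighbours overlapped except between *Bhlhe41* and *Bhlhe40* and between *Ciart* and *Hlf*, so that *Bhlhe40*, *Tef* and *Dbp* in particular did not separate.

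The PAR bZIP activators together (*Tef*, *Dbp* and *Hlf*, in CPM per kb) were below *Nfil3* in 21 of 21 mice. Their log2 ratio to *Nfil3* was -2.20 ± 0.32 in control mice at ZT0 and -1.47 ± 0.57 at ZT12 (SD, n = 6 each). In knockout mice it was -1.50 ± 0.58 at ZT0 (SD, n = 4) and -2.11 ± 0.30 at ZT12 (SD, n = 5). The order of the times was thus opposite in the genotypes, but the mice overlapped in both, from -2.49 to -1.80 against -2.28 to -0.86 in control mice and from -2.10 to -0.78 against -2.54 to -1.80 in knockout mice. The highest knockout value at ZT0 was that of replicate 3. *Tef* made up 44.0% to 78.7% of the sum. The ratio was formed after the levels of its members were known and is given without a test.

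**Figure D3:**
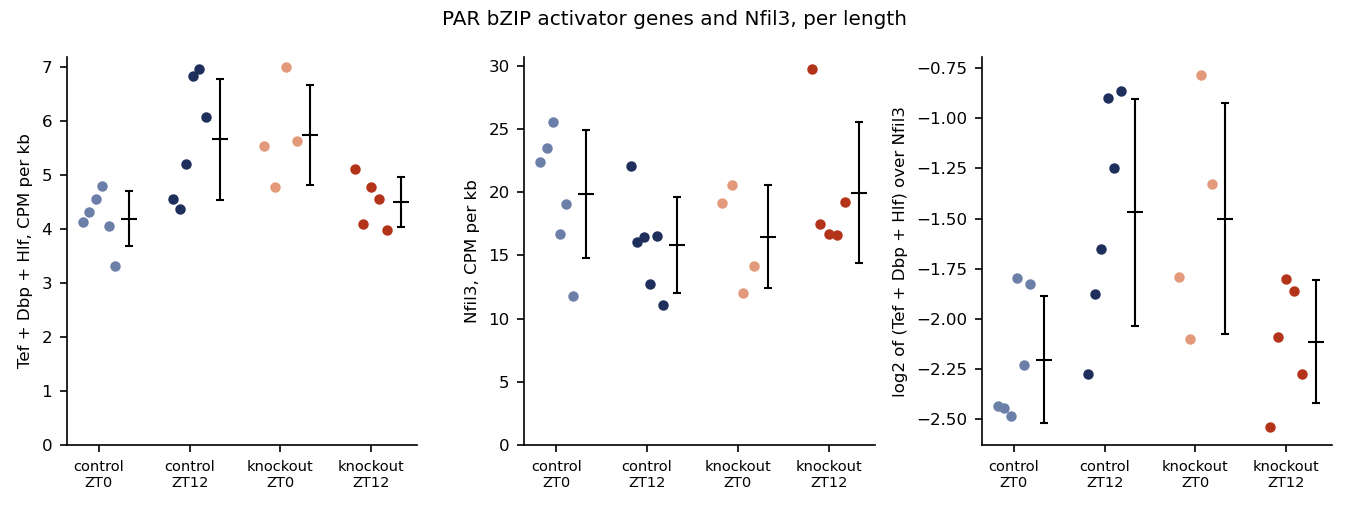
Summed level of *Tef*, *Dbp* and *Hlf* (CPM per kb, left), level of *Nfil3* (CPM per kb, centre) and log2 of their ratio (right) in each mouse of the 4 groups, with mean and SD. All ratios lie below 0, and the group means are -2.20 and -1.47 in control mice at ZT0 and ZT12 and -1.50 and -2.11 in knockout mice.

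*Bhlhe40*, an E-box repressor, was at 12.2, 13.8 and 19.4 CPM (lowest, median and highest) in control mice at ZT0 and at 7.29, 19.1 and 21.03 CPM at ZT12. In knockout mice it was at 19.6, 11.5, 10.6 and 21.8 CPM at ZT0 and at 16.4, 14.1, 22.7, 21.1 and 18.05 CPM at ZT12. The widest spread was that of the control mice at ZT12, whose range enclosed that at ZT0. Its log2 fold change was 0.11 (SE 0.24, 95% interval -0.39 to 0.60) in control and 0.21 (SE 0.28, 95% interval -0.36 to 0.79) in knockout mice. The control value moved with the immunoglobulin share. It was 0.60 (SE 0.22, unadjusted p = 0.0148, adjusted p = 0.501 from edgeR) with that share as a covariate, 0.39 (SE 0.18, unadjusted p = 0.0448, adjusted p = 0.541 from edgeR) without the 4 libraries over 58% and 0.29 (SE 0.22) with the dissociation response as a covariate, while it was -0.06 with library size only. In knockout mice it was 0.06 (SE 0.19) without the 4 libraries and 0.03 (SE 0.25) with the dissociation covariate.

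*Bhlhe41*, its paralog, was at 50.4, 55.3 and 58.9 CPM in control mice at ZT0 and at 44.5, 48.7 and 76.4 CPM at ZT12. In knockout mice it was at 61.8, 55.9, 70.3 and 52.1 CPM at ZT0 and at 55.3, 59.0, 45.9, 42.3 and 54.8 CPM at ZT12. Its log2 fold change was -0.03 in control mice (SE 0.11, 95% interval -0.27 to 0.20, adjusted p = 0.913 from edgeR) and -0.22 in knockout mice (SE 0.13, 95% interval -0.49 to 0.05, adjusted p = 0.679 from edgeR). The control value too moved with the setting, to -0.27 (SE 0.12, unadjusted p = 0.0269, adjusted p = 0.55 from edgeR) with the immunoglobulin covariate, -0.27 (SE 0.10, unadjusted p = 0.014, adjusted p = 0.125 from edgeR) with library size only, -0.18 (SE 0.10) without the 4 libraries and -0.12 (SE 0.11) with the dissociation covariate, and it was 0.08 with the length correction. In knockout mice it was -0.14 (SE 0.10) without the 4 libraries and -0.13 (SE 0.13) with the dissociation covariate. With 613 to 1257 counts per mouse it was the best counted of the 7 genes, and the interval in control mice lies wholly below the estimate for *Tef*.

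The paralogs varied in opposite directions between mice. Over the 21 mice the log2 levels of *Bhlhe40* and *Bhlhe41* had a Pearson r of -0.77 (Spearman's rho -0.71), and r was -0.80 within the groups. Of the 8176 genes compared, 14 (0.171%) had a lower r with *Bhlhe41*. The r was -0.64 without the 2 mice farthest from the median of *Bhlhe41* (n = 19) and -0.59 without the 4 libraries over 58% immunoglobulin (n = 17). In those 4 libraries *Bhlhe40* was at 7.29, 10.2 and 20.4 CPM (control ZT12 replicates 2, 4 and 5) and 10.6 CPM (knockout ZT0 replicate 3), and *Bhlhe41* at 76.4, 54.5, 44.5 and 70.3 CPM. Within the groups the immunoglobulin share had an r of -0.70 with *Bhlhe40* and 0.60 with *Bhlhe41*, and the summed level of 12 genes of the dissociation response an r of -0.58 and 0.42. The part of these measures in the relation was not tested. The mice share their library, normalization and sort, 21 pairs of members were compared, and the values are given as descriptions with no p. The other pair past 0.5 in size within the groups and over all mice was *Tef* with *Nfil3* (r -0.51 over all mice, -0.55 within the groups, and -0.39 without the 4 libraries), and 12.1% of the genes compared had a lower r.

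**Figure D4:**
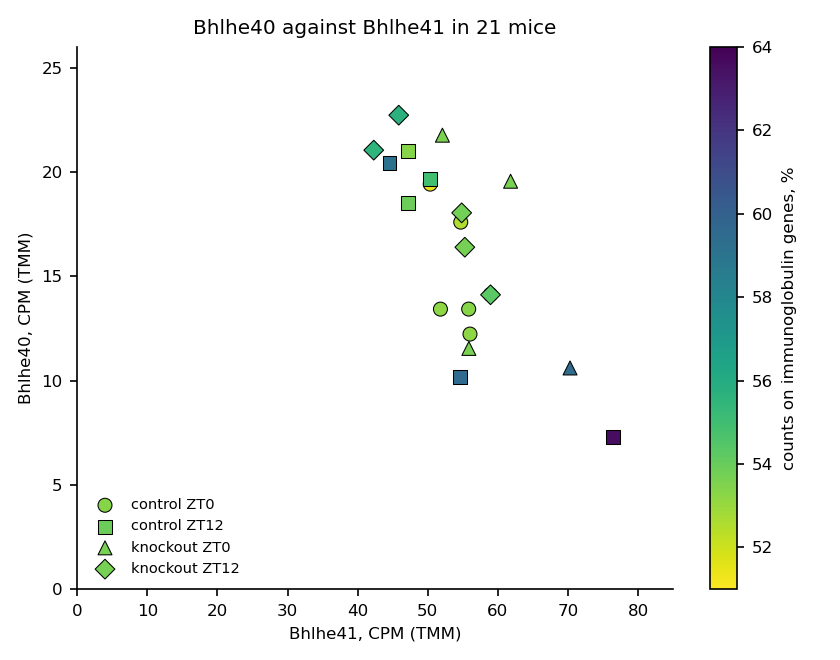
Level of *Bhlhe40* (y axis, CPM) against that of *Bhlhe41* (x axis, CPM) in the 21 mice, with the group as the shape and the share of counts on immunoglobulin genes as the colour. The mice fall along a downward slope (r -0.77), whose lower right end is held by control ZT12 replicate 2 (76.4 CPM of *Bhlhe41*) and knockout ZT0 replicate 3 (70.3 CPM).

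*Ciart*, which encodes the repressor CHRONO and held the 3 E-boxes shown above, was higher at ZT12 in most control mice, but edgeR did not call it. In control mice it was at 0.983, 1.72 and 3.34 CPM (lowest, median and highest) at ZT0 and at 1.82, 3.70 and 5.45 CPM at ZT12. The groups overlapped through control ZT12 replicate 5 at 1.82 CPM and 3 mice at ZT0 above it. The levels rest on 15 to 86 counts per control mouse, and the lowest, 15 counts, has a 95% Poisson interval of 0.55 to 1.62 CPM for counting error alone. The log2 fold change was 1.02 (SE 0.32, 95% interval 0.37 to 1.67, unadjusted p = 0.00351, adjusted p = 0.0981 from edgeR), a 2.03-fold difference. DESeq2 gave 1.05 and called it (adjusted p = 0.0254), in a comparison in which it called 8.5% of the genes it tested.

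In knockout mice *Ciart* was at 0.989, 2.23, 2.80 and 1.29 CPM at ZT0 and at 2.90, 1.70, 3.56, 2.51 and 2.28 CPM at ZT12, and the groups overlapped. The change was 0.51 (SE 0.37, 95% interval -0.26 to 1.28, adjusted p = 0.743 from edgeR), and 0.79 (SE 0.38, unadjusted p = 0.0489, adjusted p = 0.659 from edgeR) without the 4 libraries over 58% immunoglobulin. The interaction of -0.51 (SE 0.49, 95% interval -1.51 to 0.49, adjusted p = 0.717 from edgeR) leaves room for an equal change in both genotypes and for the loss of the whole change, and it was -0.17 (SE 0.51) without those libraries. At ZT12 the difference of knockout from control mice was -0.55 (SE 0.33, adjusted p = 0.615 from edgeR), and at ZT0 it was -0.04 (SE 0.36), or -0.32 (SE 0.37) without them.

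**Figure D5:**
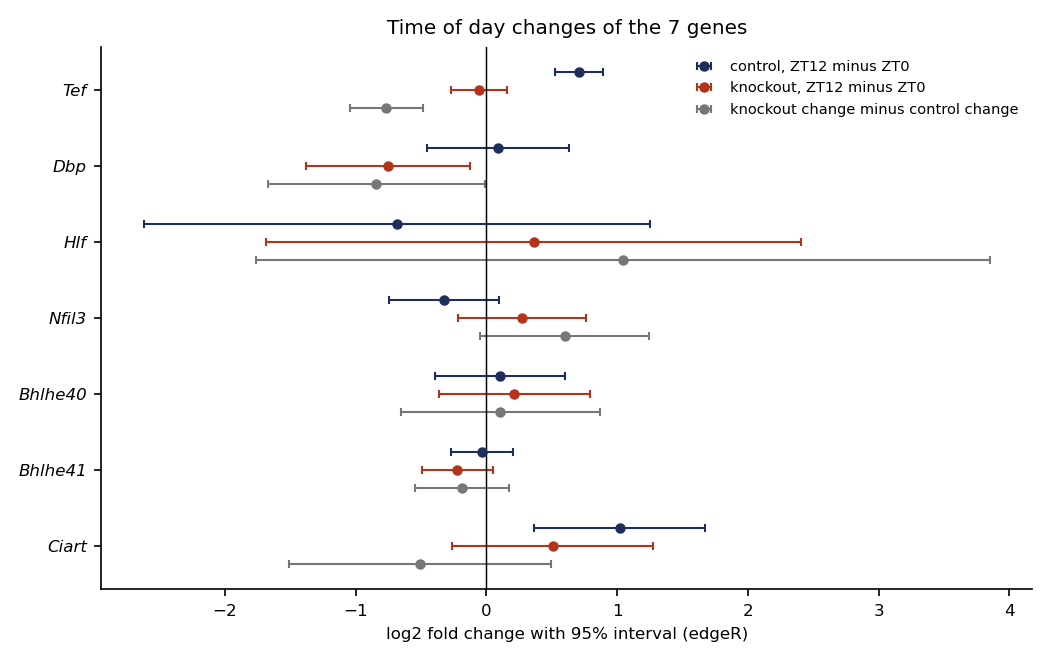
Log2 fold change with its 95% interval (x axis) of each gene from ZT0 to ZT12 in control and in knockout mice, and the difference between the genotypes, from edgeR. The control intervals of *Tef* (0.52 to 0.89) and *Ciart* (0.37 to 1.67) lie above 0, the interaction interval of *Tef* (-1.05 to -0.48) lies below 0, and those of *Hlf*, which had at most 12 counts in a mouse, are the widest.

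Across the 7 genes, the unadjusted p of the control comparison was under 0.05 for 2 (*Tef* and *Ciart*) and for 18.1% of all genes, and that between the genotypes for 1 at each time (*Tef* in both), against 4.9% of genes at ZT0 and 8.83% at ZT12. Of the 13 clock loop genes tested out of 14 listed, edgeR called *Arntl* in control mice, lower at ZT12 by a log2 fold change of -0.78 (SE 0.15, adjusted p = 0.0149), and *Nr1d2* in knockout against control mice, at -2.24 (SE 0.14, adjusted p = 8.82e-11) at ZT0 and -2.55 (SE 0.13, adjusted p = 6.06e-13) at ZT12. The median log2 fold change of these 13 was 0.30 in control mice, against 0.01 over all genes. An unadjusted p under 0.05 for time in the controls was reached by 5 of them as higher and 1 as lower at ZT12. DESeq2 called 4 of the 13 there, against 8.5% of all genes, *Arntl* as lower (adjusted p = 0.000139) and *Nr1d1*, *Per2* and *Cry1* as higher (adjusted p = 0.00694, 0.0121 and 0.0395), the direction of *Tef*. The last 3 are repressors of the loop and were named after their values were seen. By edgeR their changes were 1.52 (SE 0.41, adjusted p = 0.0597), 0.81 (SE 0.24, adjusted p = 0.0877) and 0.35 (SE 0.11, adjusted p = 0.111).

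No call was made by edgeR among the listed genes downstream of the members. Of 8 genes that PAR bZIP proteins are known to activate in the liver, 5 were tested and 0 were called by edgeR in any of the 5 comparisons. An unadjusted p under 0.05 for time in the controls, which 18.1% of all genes had, was found for 1, *Pdxk*, which encodes pyridoxal kinase, and it went down (-0.37, SE 0.16, adjusted p = 0.209 from edgeR), from 7.87 ± 1.08 to 6.06 ± 1.46 CPM (SD, n = 6 each). DESeq2 also called 0 of the 5 there. *Nr1i3* and *Ppara*, also among the 5, were near the limit of detection, at no more than 0.436 and 1.38 CPM in any mouse. DESeq2 gave neither of them an adjusted p in the control comparison. *Por*, the electron donor of the cytochrome P450 enzymes, changed by -0.06 (SE 0.10) and *Alas1*, the first enzyme of heme synthesis, by 0.18 (SE 0.19). Of 11 other clock output genes, all tested, edgeR called 0 in any comparison, with 4 at an unadjusted p under 0.05 for time in the controls (18.1% of all genes) and 1 called there by DESeq2 (8.5% of all genes it tested). *Pdxk*, *Por*, *Alas1*, *Nr1i3* and *Ppara* were named after their values were seen.

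The genes whose log2 levels followed each member most closely over the 21 mice were named among the other genes with a mean of at least 5 CPM, immunoglobulin genes left out. For *Tef* they were *Slc38a9*, *Rwdd1* and *Cars2* (Pearson r 0.81, 0.80 and 0.79). For *Dbp* they were *Ftl1-ps1*, *Sult2b1* and *Cdc37l1* (0.76, 0.75 and 0.71), and for *Nfil3* *Ehd4*, *Cpt1a* and *Lrrc8d* (0.82, 0.79 and 0.78). For *Bhlhe40* they included *Dennd4b* and *Nsd2* (0.84 and 0.84), and for *Bhlhe41* *Hsd11b1*, *Bst2* and *Tapbp* (0.85, 0.82 and 0.80). For *Ciart* they were *Narf*, *Plgrkt* and *Shmt2* (0.83, 0.79 and 0.78), and for *Hlf*, at its low counts, *Atrn*, *Psma4* and *Kctd18* (0.77, 0.74 and 0.74). These values describe the 21 libraries, which share depth and normalization.

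The genes lie apart in the genome (GRCm38, as the deposited table gives them). *Tef* (ENSMUSG00000022389) is at chr15:81802421-81826863 on the plus strand, *Dbp* (ENSMUSG00000059824) at chr7:45705088-45710203 on the plus strand and *Hlf* (ENSMUSG00000003949) at chr11:90336536-90390895 on the minus strand. *Nfil3* (ENSMUSG00000056749) is at chr13:52967209-52981073 on the minus strand and *Ciart* (ENSMUSG00000038550) at chr3:95878503-95882251 on the minus strand. *Bhlhe40* (ENSMUSG00000030103) is at chr6:108660629-108666925 on the plus strand and *Bhlhe41* (ENSMUSG00000030256) on the same chromosome at chr6:145858243-145865558 on the minus strand. Apart from *Sphk2* over *Dbp*, the opposite-strand genes that overlap a member held few counts, at most 3 in a library for *Gm17597* over *Tef*, 2 for *0610040F04Rik* over *Bhlhe40*, 10 for *C920021L13Rik* over *Ciart* and 54 for *Gm43909* over *Bhlhe41*.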

How the data were processed

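Poly-A RNA of sort-purified IgA+ PCs was sequenced in paired-end reads, and the authors deposited the unnormalized read count of every gene, with each gene's position and length. The aligner, the counter and its strand setting are not given in the sources used here, and the submitters' processing notes name DESeq2. The build was taken as GRCm38 because 52019 of 53620 genes (97%) have the same position in GENCODE M21. The 4 groups come from the sample titles and times. No column went unused.

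The counts of genes that reached 10 over all libraries were fitted with edgeR 4.0.16 (R 4.3.3, TMM factors, robust quasi-likelihood, 4 group means), with Benjamini-Hochberg adjustment over all of them. Steps were tested on simulated data. Promoters are from RefSeq. The 46 pairs of libraries within groups differed by more than sampling noise (chi-square per gene 29.5 to 242). Where libraries do not come from separate mice, p-values measure technical spread. Intervals of counts cover counting error only.

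The members and lists were chosen with earlier results of these data known. All members were named, from the other lists the genes called, with *Arntl* and *Cd79a* as checks, and per member the 3 genes with the highest correlation, of which 1 is not reported here. Alternatives were DESeq2 1.42.0, its size factors, library size only, other filters, immunoglobulin genes left out, own groups only, covariates, the length trend removed (lowess, span 0.5), a block on the replicate number, and the omission of each library. The *Xist* and dissociation covariates and the removal of 4 libraries were chosen after seeing the data.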

Additional observations from a re-analysis of the deposited data

Results flagged for a closer look

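Of 28 groups of 4 to 6 mice examined, 3 held a value far from the others by Dixon's test, which chance gives in about 1 in 20 groups. *Nfil3* was at 60.3 CPM in knockout ZT12 replicate 1, and the next mouse was at 39.02 CPM. *Bhlhe41* was at 76.4 CPM in control ZT12 replicate 2, the library with the highest immunoglobulin share (63.6%), and the next mouse was at 54.5 CPM. *Hlf* was at 0.50 CPM (8 counts) in control ZT12 replicate 6, and the next mouse was at 0.12 CPM.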

How the results depend on the processing

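The depth limits *Hlf* and *Ciart*, and 4 to 6 mice per group limit the rest. In control mice edgeR called 1 member in the fit reported, DESeq2 called 2 and the immunoglobulin covariate left 0, against 350, 1052 and 0 of all genes. The count over all genes was 38 in a fit on the control groups alone, 108 with the epithelial covariate, 114 with the dissociation covariate, 183 with the replicate block and 12 without the 4 libraries over 58%. In the interaction DESeq2 and the length correction called 1 member each, against 0 in the fit reported. Over all genes they called 4 (0.0279%) and 1 (0.00494%). With each library left out the count of members was 0 to 1, and the 1 was the only gene called of 20072 (0.00498%). Numbers shared between groups did not pair the mice (r from -0.18 to 0.20 over 10 pairs, 0 with its own number as best match). With the replicate block 1 member was called in control mice and 0 in every other comparison, and *Tef* stayed at 0.71. The threshold of 0.01 kept the count of members called in all 5 comparisons. Library size alone moved the median of all genes in control mice to -0.20, and *Tef* to 0.49. Without single libraries no member was lost. Outside single libraries left out, 24 of 478 values took the other sign, none of them called, and the cause was not tested. In control mice *Dbp* was -0.10 with library size only, -0.053 with the immunoglobulin covariate, -0.063 without the 4 libraries and -0.013 with the dissociation covariate, *Hlf* was 0.060 without the 4 libraries, *Bhlhe40* was -0.061 with library size only and -0.035 with the epithelial covariate, and *Bhlhe41* was 0.032 with the epithelial covariate and 0.076 with the length correction. In knockout mice *Tef* was 0.0054 without the 4 libraries and *Hlf* -0.012 with the dissociation covariate. In the interaction *Bhlhe40* was -0.39 with the immunoglobulin covariate, -0.34 without the 4 libraries and -0.26 with the dissociation covariate, and *Bhlhe41* was 0.034 with library size only, 0.086 with the immunoglobulin covariate and 0.036 without the 4 libraries. Between genotypes at ZT12 *Bhlhe40* was -0.063, -0.098 and -0.089 with the immunoglobulin covariate, without the 4 libraries and with the dissociation covariate, and *Bhlhe41* was 0.11 with library size only and then 0.11, 0.092 and 0.065. With each library left out, values that crossed 0 ran from -0.074 to 0.24 (*Dbp*) and -0.16 to 0.013 (*Bhlhe41*) in control mice, from -0.12 to 0.0095 (*Tef*) and -0.0052 to 0.84 (*Hlf*) in knockout mice, from -0.054 to 0.28 (*Bhlhe40*) in the interaction, from -0.10 to 0.23 (*Bhlhe40*) and -0.32 to 0.21 (*Ciart*) between genotypes at ZT0 and from -0.11 to 0.074 (*Bhlhe41*) at ZT12.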

Other observations

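Among 12 relatives of the members (C/EBP bZIP genes and the Hes and Hey repressors), 11 were tested and edgeR called 0 in any comparison. In control mice 3 had an unadjusted p under 0.05, all higher at ZT12, against 18.1% of all genes. DESeq2 called 2 of the 11 there, against 8.5% of all genes it tested. Between the genotypes at ZT12 4 had an unadjusted p under 0.05, all lower in knockout mice, against 8.83%. *Hes1*, a Notch target repressor, was at 29.5 ± 6.07 and 49.1 ± 16.8 CPM in control mice at ZT0 and ZT12 (SD, n = 6 each) and at 34.7 ± 17.4 and 29.3 ± 4.96 CPM in knockout mice (SD, n = 4 and 5), with an interaction of -0.98 (SE 0.39, adjusted p = 0.442 from edgeR). *Ddit3*, which encodes the stress factor CHOP, had an interaction of -0.71 (SE 0.33, adjusted p = 0.455 from edgeR). Of the 12 genes of the dissociation response, which included no relative, 8 had an unadjusted p under 0.05 in the interaction, all lower, against 10.8% of all genes, and their part in these values was not tested. *Hes1* and *Ddit3*, the 2 relatives that DESeq2 called in control mice (adjusted p = 0.0246 and 0.0407 from DESeq2), were named after their values were seen.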
